A study of Mus musculus with 9 samples.

Results

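The genes described here are the 7 transporters that carry cisplatin or bind its platinum on the way into and out of kidney cells: Slc22a2, Slc47a1, Slc31a1, Slc31a2, Atp7a, Atp7b and Abcc2. They were chosen by name, as organic cation and copper transporters and the conjugate exporter Abcc2, from the 32427 genes of the series. All 7 were listed in each of the 9 count matrices. Each matrix came from the dissociated kidney of 1 male C57BL/6 mouse, profiled by droplet-based scRNA-seq of polyadenylated RNA. The Control group (n = 3) received intraperitoneal saline. The AKI-CKD group (n = 3) received 4 weekly intraperitoneal injections of cisplatin at 8 mg/kg, a model in which acute kidney injury (AKI) passes over into a chronic kidney disease (CKD). The AKI-CKD + EGT group (n = 3) received the same injections and the antioxidant ergothioneine (EGT) at 0.5 mg/mL in the drinking water, begun before the first injection. All mice were 6 weeks old at the start, and kidneys were taken after 8 weeks, so the values describe RNA after the injections had ended and not during drug uptake.

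Cisplatin is cleared by the kidney and accumulates in the proximal tubule (PT), the segment that reabsorbs most of the filtrate and secretes drugs. Organic cation transporters of the basolateral membrane bring it in from the blood, and exporters of the brush border pass it on to the urine. Platinum also enters the route that cells use for copper, which runs from the copper importer at the surface to the copper-pumping ATPases of the Golgi and vesicles. Much of the drug inside a cell is bound to glutathione, and such conjugates are substrates of ABC exporters.

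The 9 libraries held 216680 cell barcodes and between 70106161 and 101525691 UMIs each, a UMI being 1 counted RNA molecule. After filtering, 196925 cells remained with a median of 2714 UMIs, and the limit on mitochondrial RNA removed between 0.909% and 17.0% of the cells of 8 libraries and 27.7% in AKI-CKD + EGT mouse 3. The doublet caller Scrublet marked 0 to 2 cells in 8 libraries and 3920 of 17196 in AKI-CKD + EGT mouse 1. Both libraries stand apart from the rest. Among the others the share removed was highest in Control mouse 1, at 17.0%, and next in AKI-CKD + EGT mouse 2, at 7.94%. Of 29 clusters of at least 50 cells, 27 were named as 12 cell types from marker lists: PT, loop of Henle (LOH), distal convoluted tubule (DCT), collecting duct principal (CD-PC) and intercalated (CD-IC) cells, podocytes, endothelial cells, stromal cells, macrophages, T cells, B cells and cycling cells. PT cells made up 161655 of the cells, or 82.1%. In 11 of the 12 types every listed marker was at least 2-fold above the other types pooled, whereas in PT cells 3 of 11 markers were. For a type other than PT that pool is mostly PT cells, so a marker need not exceed each single type. The summed level of 8 PT markers in the other types was between 0.314 (CD-PC) and 0.857 (podocytes) times that in PT cells, in the mean over mice. Some classes are mixtures. In the DCT class, a cluster of 4695 of the 11948 cells, or 39.3%, was led by Calb1, S100g, Klk1 and Slc8a1, which are also known from the connecting tubule, and had neither Slc12a3 nor Pvalb among its 10 leading genes. When the types were named without the correction between libraries (Harmony), an alternative chosen after the values were seen, 52.4% of the stromal class of 1351 cells formed a thin limb class and 40.3% remained stromal. Of the 2587 CD-PC cells, 36.3% remained CD-PC and 54.5% fell in DCT, and the share that fell in PT was 32.2% of DCT, 29.3% of podocyte, 22.3% of LOH, 18.2% of CD-IC and 16.5% of cycling cells. One gene, Kap, supplied 84.8% of these marker UMIs in PT cells. PT RNA was therefore counted in every cell type, and each transporter is set beside this ratio. The part of free RNA in it was not tested.

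Slc22a2 encodes OCT2, the basolateral organic cation transporter that takes up cisplatin, and Slc47a1 encodes MATE1, which exchanges organic cations for protons at the brush border. Abcc2 encodes MRP2, the apical ABC exporter of glutathione and glucuronide conjugates. Of the 12 named types, PT cells had the highest level of all 3 genes. In CPM, the UMIs of a gene per 1e6 UMIs of a mouse's cells of that type, Slc22a2 in PT cells was at 250.7 ± 37.4 (SD, n = 9 mice), with a lowest mouse at 180.8, a median of 259 and a highest mouse at 305. Slc47a1 was at 241 ± 30.9 CPM, from 202 over a median of 231 to 291. Abcc2 was at 196 ± 38.9 CPM, from 149 over 197 to 280. The lowest levels of these genes were in collecting duct cells: 88.1 ± 34.2 CPM for Slc22a2 and 70.7 ± 34.8 CPM for Abcc2 in CD-IC cells, and 88.4 ± 31.3 CPM for Slc47a1 in CD-PC cells. Going down the order of types, the ranges over mice of neighbouring types overlapped for all 3 genes. Within a mouse, however, Slc47a1 in macrophages, the type next to PT, was at 0.704 ± 0.0646 times its PT level and above it in 0 of 9 mice. Slc22a2 in podocytes, its next type, was at 0.812 ± 0.254 times and above PT in 1 of 7 mice, and Abcc2 in cycling cells at 0.856 ± 0.217 times and above PT in 3 of 9. Outside PT, the level of Slc22a2 was between 0.353 and 0.812 times its PT level. Divided by the ratio of the PT markers in the same type, this gave 0.919 to 1.25 over the 11 types, and in 9 of them at most 1.2. The same quotient was 0.658 to 1.22 for Slc47a1, with 9 types at most 1.2. For Abcc2 it was 0.732 to 1.63, with 8 types at most 1.2 and the highest value in cycling cells. Without Kap the PT marker ratio of cycling cells was 0.712 instead of 0.526 and the quotient of Abcc2 was 1.202, still its highest, and those of Slc22a2 and Slc47a1 reached 1.203 and 1.17 over the types. Mouse by mouse, Slc22a2 lay above the ratio of the PT markers in 9 of 9 mice in CD-PC cells and in 8 of 9 in endothelial and in stromal cells, and below it in most mice in LOH and DCT cells. Slc47a1 lay above it in 9 of 9 mice in stromal cells and in 8 of 9 in CD-PC and in endothelial cells. With quotients of at most 1.25, low expression of both genes outside PT could not be told apart from PT RNA.

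Slc31a1 encodes CTR1, the high-affinity copper importer through which platinum drugs can enter. It was highest in CD-PC cells and not in PT cells. The levels in CD-PC cells were 136, 104 and 174 CPM in Control mice 1 to 3, 107, 114 and 113 CPM in AKI-CKD mice, and 139, 121 and 102 CPM in AKI-CKD + EGT mice. Their mean was 124 ± 23.2 CPM (n = 9), against 90.2 ± 7.34 CPM in PT cells. Without Harmony the CD-PC mean was 148 ± 34.3 CPM and again above PT in 9 of 9 mice. Within a mouse the CD-PC level was 1.36 ± 0.184 times the PT level and above it in 9 of 9 mice, although the ranges over mice of both types overlapped. The PT markers stood at 0.314 times their PT level in these cells. The lowest means of Slc31a1 were 49.996 ± 27.0 CPM in podocytes (7 mice with at least 20 cells), 52.6 ± 19.1 CPM in B cells and 52.7 ± 9.52 CPM in stromal cells. In LOH and DCT cells the gene was at 0.760 ± 0.0666 and 0.781 ± 0.0403 times its PT level, above the ratio of the PT markers (0.584 and 0.522) in 9 of 9 mice. In macrophages it was at 0.808 ± 0.114, beside 0.762 for the PT markers, and above that ratio in 4 of 9 mice.

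Atp7a encodes a copper-exporting ATPase that moves from the Golgi to the basolateral membrane, and its level set CD-PC cells apart. The levels there were 75.6, 67.2 and 132 CPM in Control mice 1 to 3, 56.5, 74.6 and 71.3 CPM in AKI-CKD mice, and 55.9, 59.6 and 58.2 CPM in AKI-CKD + EGT mice. The highest value, in Control mouse 3, rested on 86 UMIs in 190 cells. The mean of 72.3 ± 23.5 CPM (n = 9) compared with 19.2 ± 7.90 CPM in CD-IC cells, the next type, and no mouse's CD-PC value was as low as any CD-IC value, where the highest mouse was at 32.8 CPM. In the smaller CD-PC class formed without Harmony the mean was 113 ± 37.1 CPM, from 80.8 to 193. In PT cells Atp7a was at 15.7 ± 2.93 CPM, sixth in the order of types. The CD-PC level was 4.78 ± 1.96 times the PT level of the same mouse, and above it in 9 of 9 mice. From CD-IC down to T cells (11.7 ± 7.97 CPM), the ranges of neighbours in the order overlapped.

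Slc31a2 encodes CTR2, a relative of CTR1 that lies mainly in endosomes and lysosomes. It was low in PT cells, at 8.74 ± 1.21 CPM (n = 9), where it ranked 10th of 12 types. The highest mean was in podocytes, 58.8 ± 51.5 CPM over 7 mice, but it came from 72 UMIs in the podocytes of those mice and ranged from 13.1 to 157 CPM. Stromal cells followed with 39.0 ± 19.2 CPM, from 14.3 over a median of 32.7 to 68.5 CPM. This value belonged to the mixed class: without Harmony, stromal cells were at 16.6 ± 6.03 CPM and the thin limb cells split from them at 56.0 ± 24.5 CPM, from 20.7 to 94.0, both above PT in 9 of 9 mice. Endothelial cells had 21.4 ± 4.93 CPM, from 14.6 over 22.5 to 29.1 CPM. Each of these 3 types lay above PT in every mouse with a value, 7 of 7 for podocytes and 9 of 9 for the other two, although the ranges of neighbouring types overlapped. CD-IC cells, at 17.7 ± 4.37 CPM, also lay above PT cells in 9 of 9 mice. Slc31a2 therefore had an order of types unlike that of the organic cation transporters. Atp7b encodes the second copper ATPase, best known from the liver and from Wilson disease, and was nearly undetected. It had 254 UMIs in all PT cells, which is 0.418 ± 0.115 CPM, and between 0 and 12 UMIs in each of the other 11 types. In B cells the count was 0 of 2224991 UMIs in 726 cells, which allows up to 3 counts, and its order over types is not interpretable at this depth. Such limits cover counting error only.

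**Figure D1:**
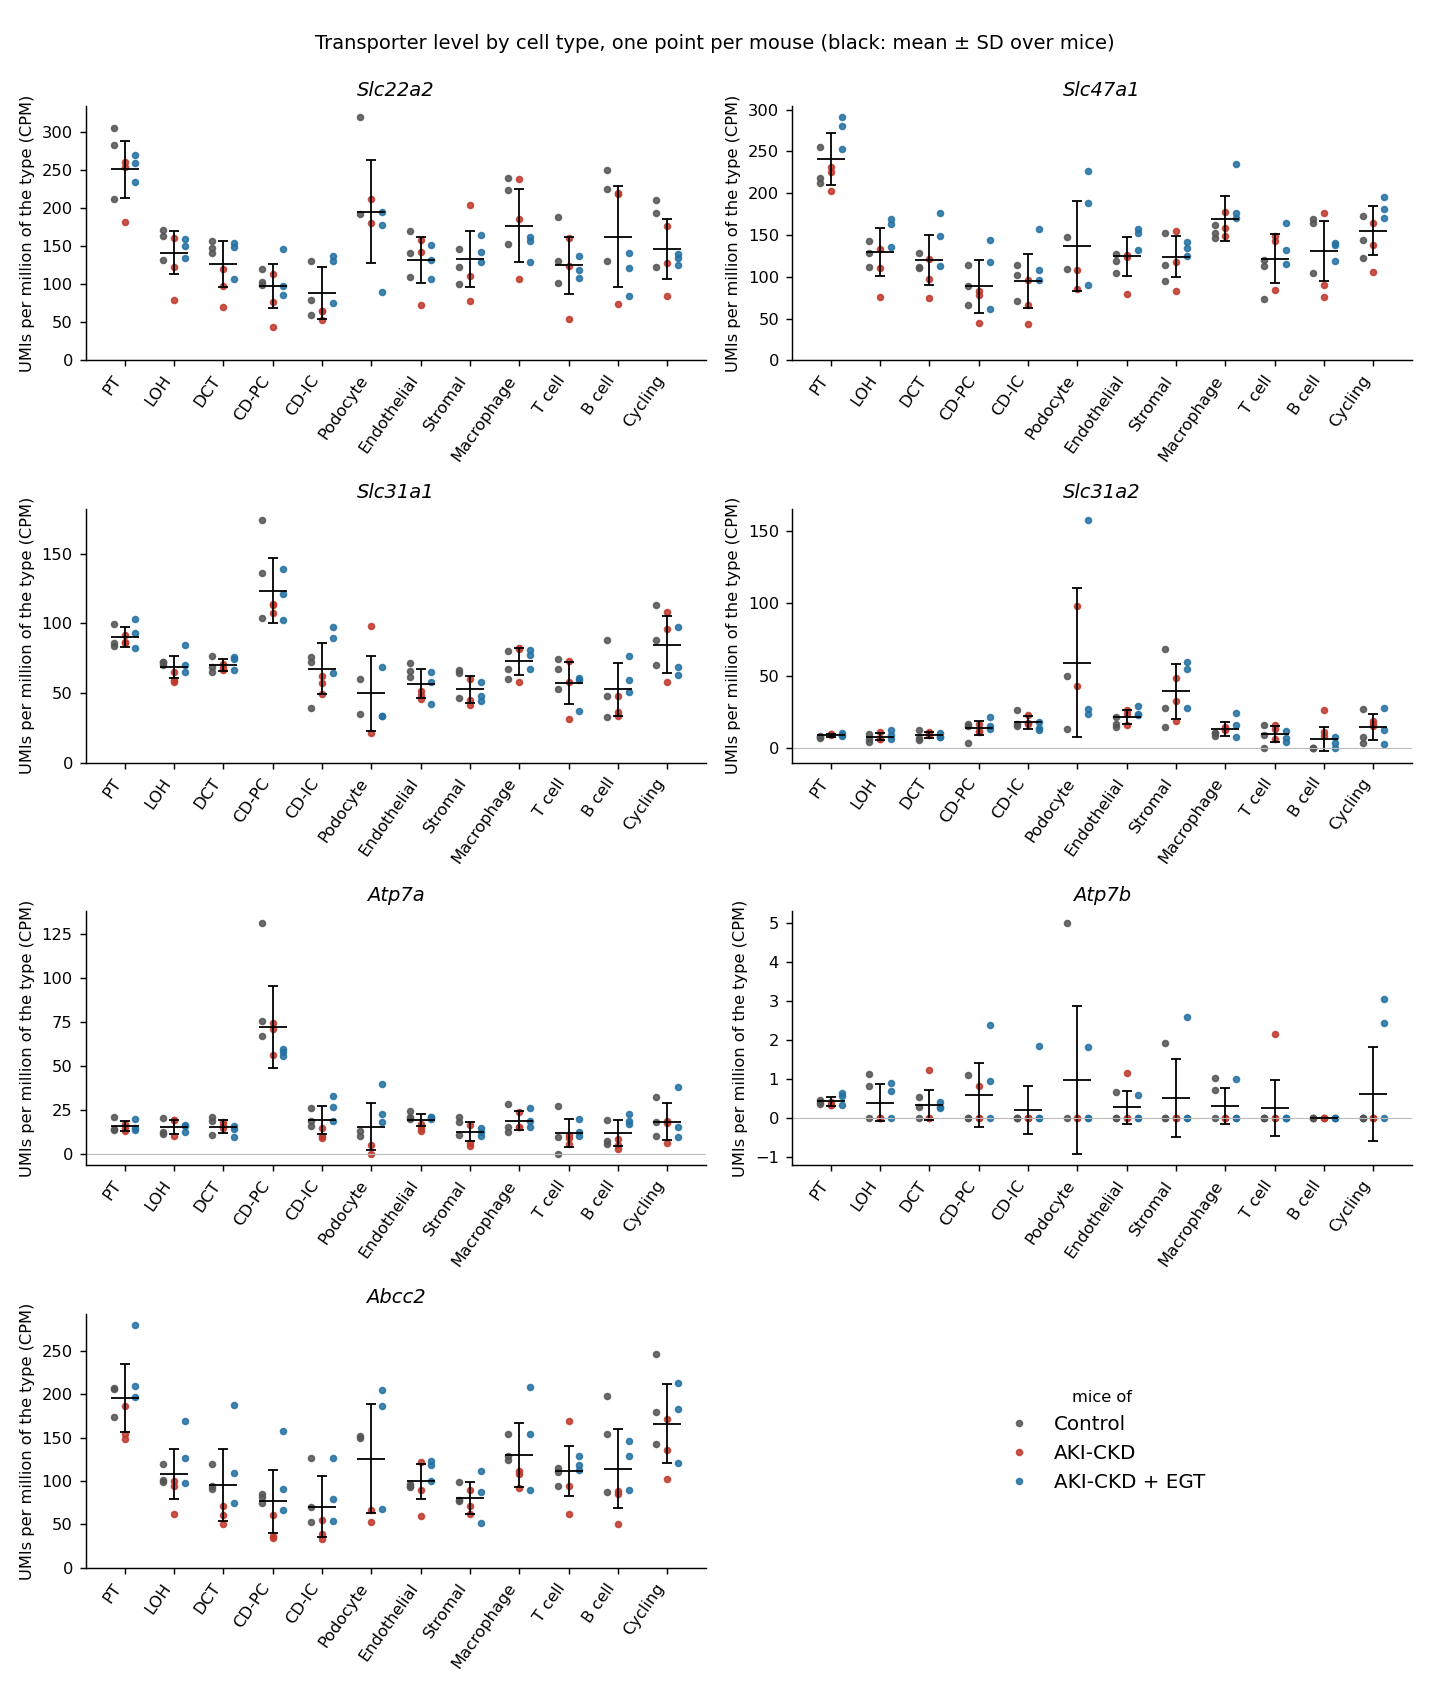
Level of each transporter by cell type, in CPM of the summed cells of a mouse. Each point is 1 mouse, coloured by group, and the black lines give the mean ± SD over mice. Slc22a2, Slc47a1 and Abcc2 peak in PT cells, at means of 250.7, 241 and 196 CPM, Slc31a1 and Atp7a in CD-PC cells, at 124 and 72.3 CPM, and Slc31a2 in podocytes, with a wide spread.

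**Figure D2:**
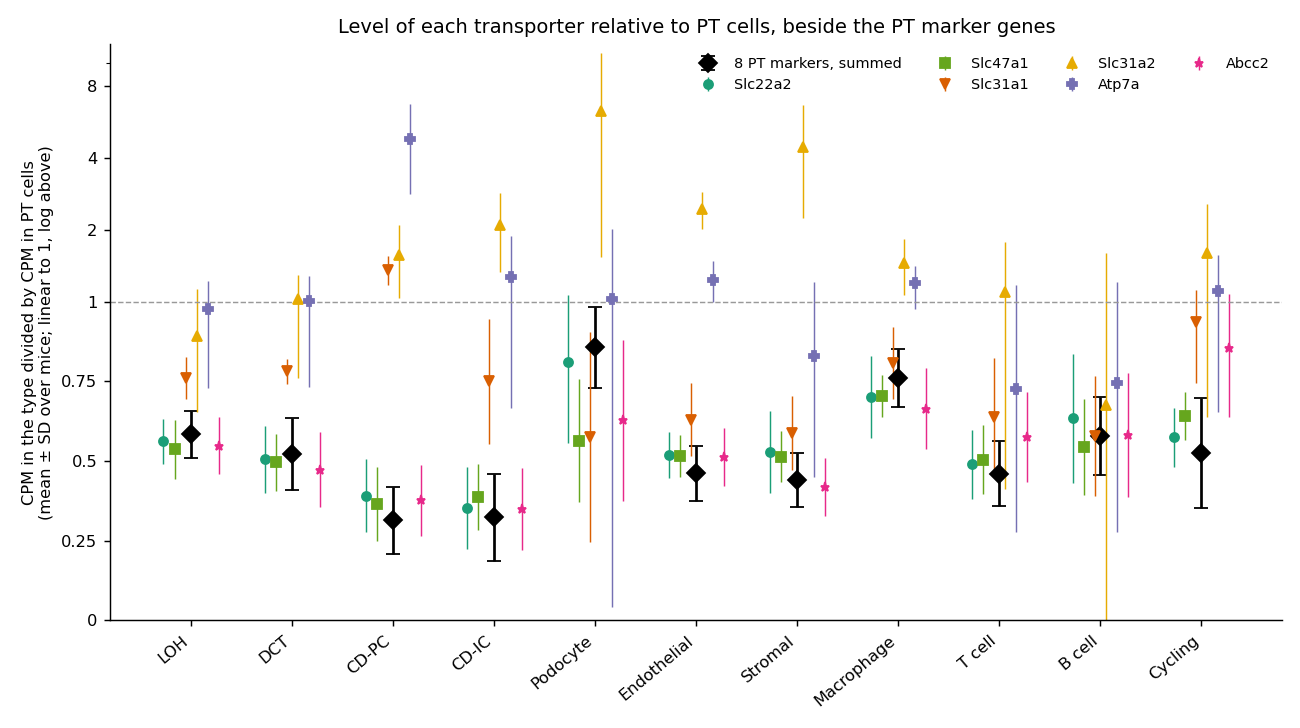
Level of a transporter in a cell type divided by its level in PT cells of the same mouse (vertical axis, linear up to 1 and logarithmic above), for each cell type, with the same ratio for the 8 summed PT markers. Symbols are means over mice and bars the SD (the bar of Slc31a2 in B cells is not drawn below 0), and Atp7b is not plotted. Atp7a in CD-PC cells, at 4.78, and Slc31a2 in the stromal class, which holds thin limb cells, at 4.45, stand above the PT markers at 0.314 and 0.440.

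The genes nearest to each transporter in pattern were named by Pearson's r over the 12 mean levels of the cell types, among 12093 genes that reached 10 CPM in at least 1 type. The types share libraries and PT RNA, so r is a description. Of the genes given next, Slc7a13, Lrp2, Cubn and Col1a2 are on the marker lists that named the types. Lrp2 is also among the summed PT markers, so these matches are not independent of the naming. Slc22a2 was nearest to Ephx2 (r = 0.987), Serpinf2 (0.984) and Ces1f (0.979). Slc47a1 was nearest to Gjb2 (0.978), Gk (0.976) and Slc7a13 (0.972). Abcc2 was nearest to Lrp2 (0.987), Rhobtb1 (0.985) and Cubn (0.982), where Lrp2 and Cubn encode megalin and cubilin, the endocytic receptors of the PT brush border. Among the transporters themselves, r was 0.915 for Slc22a2 with Slc47a1, 0.912 for Slc47a1 with Abcc2 and 0.856 for Slc22a2 with Abcc2. Atp7a was nearest to Wnt9b (0.955), a Wnt ligand made by the collecting duct system, to Spock3 (0.947) and to Gm20485 (0.945). Slc31a1 was nearest to Sgsm2 (0.934), Glb1l2 (0.929) and Gm47889 (0.929), and its r with Atp7a was 0.784. Slc31a2 was nearest to Col1a2 (0.919), which encodes a fibrillar collagen chain, to Aplp1 (0.916) and to Inpp4a (0.911), all 3 with their highest mean in podocytes here. Col1a2 is on the stromal marker list, and whether the podocyte class holds stromal cells or RNA was not tested. Atp7b stayed under 10 CPM in every type and was not compared.

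The promoters of these genes differ in their number of CG dinucleotides. Shown are a pair of genes with the highest level in PT cells and the pair with the highest level in CD-PC cells, each from 250 bases before to 50 bases after the RefSeq start (build GRCm38.p6, all on the + strand). The letters CG in capitals mark each CpG dinucleotide, and the lower-case bases are the rest. The positions are chr17:12583939-12584238 for Slc22a2, chr19:43782058-43782357 for Abcc2, chr4:62360451-62360750 for Slc31a1 and chrX:106026974-106027273 for Atp7a.
Slc22a2: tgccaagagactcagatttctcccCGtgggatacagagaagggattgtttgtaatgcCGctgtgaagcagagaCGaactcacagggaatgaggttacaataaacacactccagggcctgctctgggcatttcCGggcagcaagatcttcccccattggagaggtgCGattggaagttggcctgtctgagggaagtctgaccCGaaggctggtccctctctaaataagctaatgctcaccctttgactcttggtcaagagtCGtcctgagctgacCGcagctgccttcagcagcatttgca
Abcc2: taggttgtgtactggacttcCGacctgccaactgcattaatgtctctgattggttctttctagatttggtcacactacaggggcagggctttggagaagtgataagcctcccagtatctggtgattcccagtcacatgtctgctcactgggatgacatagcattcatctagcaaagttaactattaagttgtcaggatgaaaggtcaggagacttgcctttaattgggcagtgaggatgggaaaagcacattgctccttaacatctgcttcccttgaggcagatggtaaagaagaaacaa
Slc31a1: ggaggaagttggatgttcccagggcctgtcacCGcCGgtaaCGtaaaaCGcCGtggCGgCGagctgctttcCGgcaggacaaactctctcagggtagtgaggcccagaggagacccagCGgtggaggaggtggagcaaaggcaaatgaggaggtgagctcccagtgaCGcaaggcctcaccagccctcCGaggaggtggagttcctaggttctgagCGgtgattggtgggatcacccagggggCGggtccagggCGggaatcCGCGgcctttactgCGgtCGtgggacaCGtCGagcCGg
Atp7a: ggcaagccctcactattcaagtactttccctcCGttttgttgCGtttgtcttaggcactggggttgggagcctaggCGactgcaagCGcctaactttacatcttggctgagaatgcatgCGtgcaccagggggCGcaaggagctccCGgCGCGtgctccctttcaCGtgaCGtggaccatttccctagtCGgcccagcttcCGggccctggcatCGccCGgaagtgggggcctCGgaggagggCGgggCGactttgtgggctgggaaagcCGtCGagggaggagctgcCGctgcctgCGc
The window of Abcc2 held 1 CG and that of Slc22a2 held 8, whereas that of Slc31a1 held 21 and that of Atp7a 22. The windows of Slc31a2 and Atp7b held 25 and 26. The median over the 32851 promoters of the same length was 7, and at least as many CG as in the member were found in 94.6% of promoters for Abcc2, 48.7% for Slc22a2, 24.8% for Slc31a1, 23.1% for Atp7a, 18.4% for Slc31a2 and 16.9% for Atp7b. A sequence was found for 6 of the 7 genes, all but Slc47a1. A count of CG in a window is a description of these letters and was not tested against the levels.

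Along the proximal tubule, the PT clusters were split by segment markers into an S1/S2 class (convoluted part) and an S3 class (straight part), without use of the 7 genes in the embedding. Slc22a2 was higher in S3, at 355 ± 40.9 CPM (n = 9; from 294 to 416) against 192 ± 28.1 CPM (from 139 to 227) in S1/S2. The ranges did not overlap, and the ratio of the means was 1.85. Atp7a had the opposite order, at 9.63 ± 1.23 CPM in S3 (from 7.84 to 11.7) against 19.0 ± 3.90 CPM in S1/S2 (from 15.8 to 26.6), and again no values overlapped. The copper importer gene Slc31a1 and its relative Slc31a2 also lay lower in S3 in 9 of 9 mice, with overlapping ranges. Slc31a1 was at 80.5 ± 9.83 against 95.2 ± 7.70 CPM and Slc31a2 at 6.72 ± 1.01 against 9.87 ± 1.35 CPM. Slc47a1 was at 251 ± 35.0 CPM in S3 and 235 ± 28.8 CPM in S1/S2, higher in S3 in 8 of 9 mice by a mean of 0.09 on the log2 scale. Abcc2 was at 175 ± 48.2 CPM in S3 and 208 ± 35.4 CPM in S1/S2, higher in S3 in 1 of 9 mice. Atp7b, with 103 and 151 UMIs, was higher in S3 in 5 of 9 mice. These are descriptions of clustered cells, with no test. Within the 10 PT clusters of over 1000 cells, Abcc2 ranged from 95.1 to 506 CPM, 5.32-fold, Atp7a from 6.95 to 34.1 CPM, and Slc47a1 from 110 to 408 CPM. A single S1/S2 cluster of 12003 cells held the highest value of all 3 genes. It was led by Snhg11, Gm14764, Nhs, Gm15802 and C330002G04Rik. Without that cluster, an alternative chosen after the values were seen, the S1/S2 level of Abcc2 was 151 ± 17.4 CPM and its order turned, with S3 higher in 8 of 9 mice. Slc47a1 was then at 202 ± 21.7 CPM in S1/S2 and higher in S3 in 9 of 9 mice, and Atp7a at 16.3 ± 3.29 CPM and lower in S3 in 9 of 9. Slc22a2 ranged from 106 to 384 CPM over these PT clusters and was highest in an S3 cluster. That cluster was led by Gm29773, Gm37760 and Gm22146 and had no PT marker among its 10 leading genes. The segment order of Slc22a2 did not hold between every pair of clusters. An S1/S2 cluster of 10170 cells, at 331 CPM, lay above an S3 cluster of 24460 cells, at 312 CPM. The former was led by Osgin1, Angptl4 and Slc25a25. What sets these clusters apart within a segment was not tested. A smaller S3 cluster of 210 cells was at 499 CPM. Slc31a1 varied least, from 67.5 to 110 CPM.

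**Figure D3:**
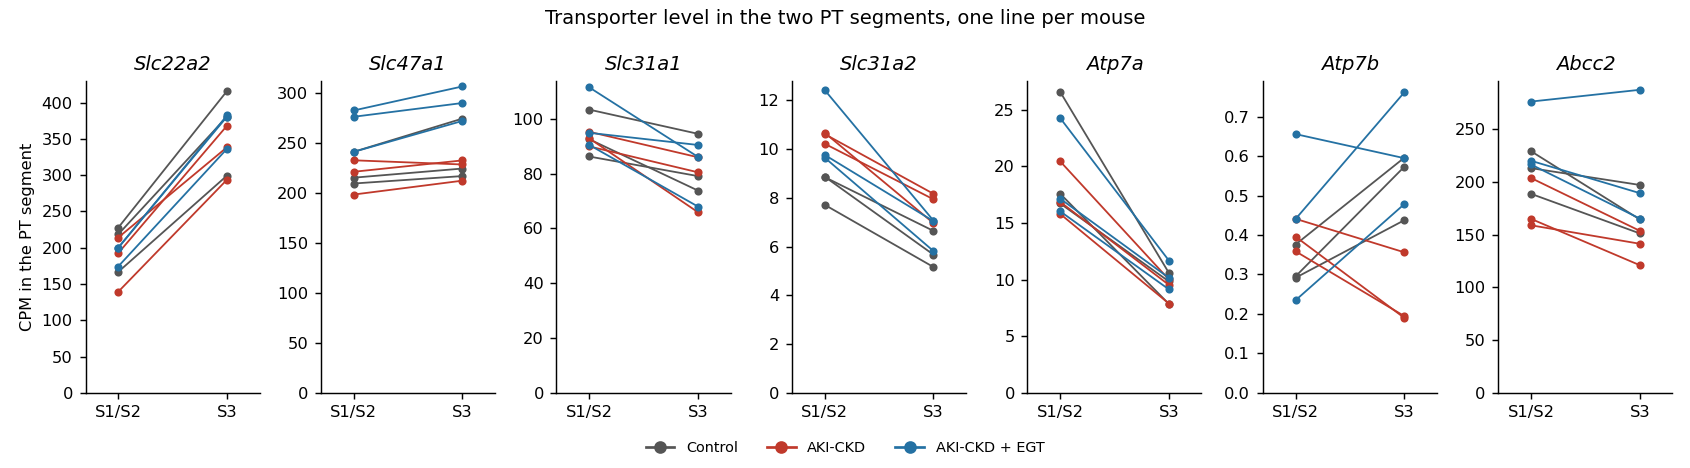
Level of each transporter in S1/S2 and S3 proximal tubule cells, in CPM on a linear axis from 0. Each line joins the values of 1 mouse, coloured by group. Slc22a2 goes up in every mouse (means 192 and 355 CPM) and Atp7a down in every mouse (means 19.0 and 9.63 CPM).

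The share of S1/S2 among PT cells bears on the summed levels. In Control mice 1 to 3 it was 63.6%, 59.1% and 58.2%. AKI-CKD mice had 64.3%, 68.0% and 60.2%. With EGT the share was 64.5%, 60.8% and 61.9%. The AKI-CKD mean was 3.81 percentage points above Control (two-sided exact permutation test, p = 0.2, n = 3 per group), and the AKI-CKD + EGT mean 1.70 points below AKI-CKD, a difference of -1.70 (exact permutation test, p = 0.7). The groups overlapped in both comparisons, and 3 against 3 mice cannot give a p below 0.1. Without AKI-CKD mouse 2, the second difference turned to 0.217 points. Without the correction between libraries (Harmony), the differences were 16.4 points (p = 0.1, exact permutation test) and -16.7 points (p = 0.3, exact permutation test). In that embedding part of the PT cells fell in neither segment class, with 28.0% in S1/S2 and 8.25% in S3 in mouse 3 of AKI-CKD + EGT, so these are not shifts between S1/S2 and S3 alone.

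AKI-CKD was then compared with Control for what the cells hold 8 weeks into the model, and AKI-CKD + EGT with AKI-CKD for what EGT added. Both comparisons share the 3 AKI-CKD mice. UMI counts were summed per mouse in PT, LOH and DCT cells and tested with edgeR's quasi-likelihood test, and levels between groups are in CPM with library sizes scaled by TMM. No transporter passed the threshold, an adjusted p under 0.05 after Benjamini-Hochberg adjustment over all genes tested, in any of these 6 tests. DESeq2 also called none of the 7. In PT cells all 7 genes were tested, of 17954 genes. In LOH and DCT cells 6 were, since Atp7b had 8 and 12 UMIs there and did not pass the filter on low counts. A change in summed counts does not separate more RNA per cell from a changed mix of cells within a type.

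In PT cells, AKI-CKD against Control, edgeR called 0 of 7 transporters, beside 0.0446% of all genes tested. The unadjusted p was under 0.05 for 1 of 7, beside 10.8% of all genes. The values of the groups did not overlap for 1 of 7, beside 19.9% of all genes. Both counts are near the background. The median log2 fold change was -0.04 over the 7 genes and -0.01 over all genes. The gene in question was Slc31a2. It was at 6.44, 8.11 and 8.17 CPM in Control mice 1 to 3, at 9.78, 10.5 and 10.4 CPM in AKI-CKD mice, and at 10.6, 7.82 and 7.28 CPM in AKI-CKD + EGT mice. All AKI-CKD values lay above all Control values. The log2 fold change was 0.44 (SE 0.159, 95% interval 0.08 to 0.79) and did not pass the test (edgeR's quasi-likelihood test, unadjusted p = 0.0197, Benjamini-Hochberg adjusted p = 0.403; DESeq2 adjusted p = 0.313). Leaving out 1 mouse at a time gave 0.33 to 0.50.

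For the organic cation transporters Slc22a2 and Slc47a1 in PT cells the spread within a group was as wide as the distance between groups. Slc22a2 was at 199, 301 and 314 CPM in Control mice, 263, 191 and 292 CPM in AKI-CKD mice, and 257, 257 and 194 CPM in AKI-CKD + EGT mice. Its log2 fold change was -0.12 for AKI-CKD against Control (95% interval -0.60 to 0.35) and -0.08 for AKI-CKD + EGT against AKI-CKD (95% interval -0.55 to 0.40). Both intervals hold 0, and the groups overlapped. Without 1 mouse the first lay between -0.30 and 0.040. The second turned to 0.055 without AKI-CKD + EGT mouse 3. Slc47a1 was at 205, 227 and 262 CPM, then 234, 214 and 259 CPM, then 278, 242 and 242 CPM in the same order of groups and mice. Its log2 fold changes were 0.03 (95% interval -0.29 to 0.34) and 0.11 (95% interval -0.21 to 0.42), with overlapping groups. Without 1 mouse the first lay between -0.052 and 0.13. The second then lay between 0.027 (AKI-CKD + EGT mouse 1 left out) and 0.18 (AKI-CKD mouse 3). Abcc2 was at 195, 186 and 213 CPM in Control mice, 193, 163 and 167 CPM in AKI-CKD mice, and 208, 188 and 233 CPM in AKI-CKD + EGT mice. It had the smallest p of the 7 genes in the EGT comparison, with a log2 fold change of 0.27 (SE 0.134, 95% interval -0.03 to 0.56; edgeR's quasi-likelihood test, Benjamini-Hochberg adjusted p = 0.378), and overlapping values in 1 pair of mice, 193 against 188 CPM. Against Control its log2 fold change in AKI-CKD was -0.18 (95% interval -0.48 to 0.12).

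For the other copper transporters in PT cells the groups overlapped in both comparisons. Slc31a1 was at 81.1, 89.0 and 103 CPM in Control mice, 95.5, 90.7 and 97.0 CPM in AKI-CKD mice, and 102, 89.0 and 68.3 CPM in AKI-CKD + EGT mice. Its log2 fold changes were 0.05 (95% interval -0.29 to 0.40) and -0.13 (95% interval -0.47 to 0.22). The second was -0.27 without mouse 1 of AKI-CKD + EGT and 0.027 without mouse 3. The first lay between -0.021 and 0.15 when 1 mouse was left out. Atp7a was at 19.9, 14.7 and 14.3 CPM, then 17.4, 15.8 and 14.4 CPM, then 14.7, 12.8 and 16.3 CPM in the same order. Its log2 fold changes were -0.04 (95% interval -0.38 to 0.30) and -0.12 (95% interval -0.46 to 0.22), with overlapping groups. The second was -0.040 without mouse 2 of AKI-CKD + EGT and -0.20 without mouse 3. When 1 mouse was left out, the first lay between -0.12 and 0.13. Atp7b rested on 95, 78 and 81 UMIs per group. Its log2 fold changes were -0.14 and 0.30, or -0.29 to -0.0081 and 0.041 to 0.51 when 1 mouse was left out, and its 95% intervals, -0.90 to 0.62 and -0.46 to 1.07, were the widest of the 7 genes, so smaller differences were not detectable at this depth. In the comparison of AKI-CKD + EGT with AKI-CKD, edgeR called 0 of 7 transporters and 0% of all genes tested. Without mouse 1 of AKI-CKD + EGT it called 161 of 18863 genes, still with 0 of the 7. None of the 7 had an unadjusted p under 0.05, beside 14.7% of all genes, and none was without overlap, beside 20.9%. Slc31a2 had a log2 fold change of -0.26 there (95% interval -0.61 to 0.09), and of -0.45 without mouse 1 of AKI-CKD + EGT and -0.15 without mouse 3, and the median over the 7 genes was -0.08, beside -0.01 over all genes.

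**Figure D4:**
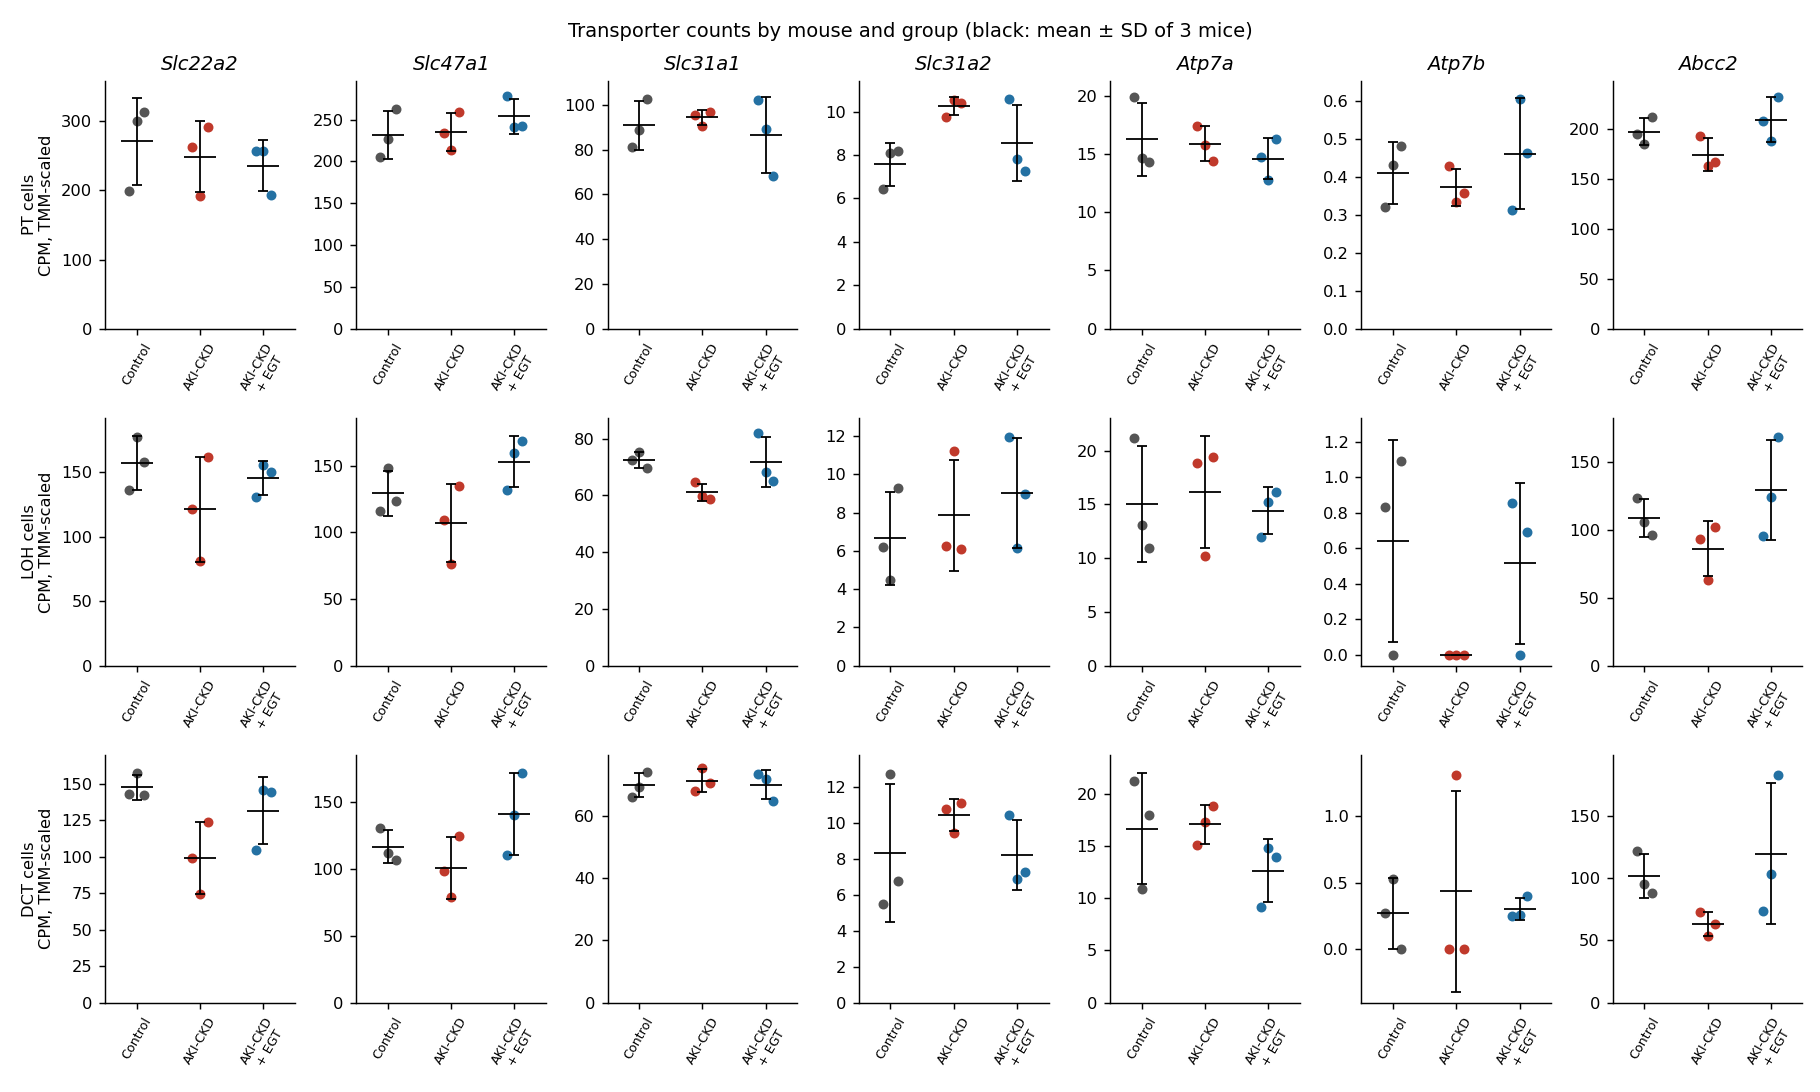
Level of each transporter in PT, LOH and DCT cells of each mouse, in CPM with TMM-scaled library sizes, by group. Each point is 1 mouse, and the black lines give the mean ± SD of 3 mice. In PT cells the groups overlap for every gene but Slc31a2 between Control (6.44 to 8.17) and AKI-CKD (9.78 to 10.5), and in DCT cells Abcc2 is lower in AKI-CKD (53.6 to 72.9) than in Control (87.6 to 122).

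In LOH and DCT cells the group differences of Slc22a2, Slc47a1 and Abcc2 had the same sign as those of the summed PT markers. So had those of Slc31a1 in LOH cells (-0.25 and 0.22 on the log2 scale), but not in DCT cells (0.03 and -0.03). Slc31a2 and Atp7a did not share both signs in either type. Kap supplied 85.2% of the marker UMIs in LOH cells and 84.9% in DCT cells. The summed PT markers made up 7.42 ± 0.473% of the UMIs of DCT cells in Control mice, 4.46 ± 1.84% after cisplatin alone and 5.46 ± 1.46% with cisplatin and EGT (SD, n = 3 each). All 8 markers had a lower mean in AKI-CKD than in Control, 3 of them without overlap, and all 8 a higher mean with EGT than with cisplatin alone, none without overlap. On the log2 scale the sum differed by -0.73 and 0.29, and its AKI-CKD values (2.70% to 6.37%) lay below its Control values (6.90% to 7.82%). In LOH cells the sum was 8.23 ± 0.793%, 5.03 ± 1.62% and 6.10 ± 0.846% in the same order, or -0.71 and 0.28 on the log2 scale, with 7 of 8 markers lower in AKI-CKD and 8 of 8 higher in AKI-CKD + EGT. In PT cells themselves the sum was 13.1 ± 1.56% in Control mice, 9.81 ± 2.17% after cisplatin alone and 9.90 ± 0.728% with EGT, or -0.41 and 0.014 on the log2 scale, with overlapping groups and 4 of 8 markers lower in AKI-CKD than in Control. The part of PT RNA in the differences given next was not tested.

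In DCT cells Abcc2 was at 122, 95.2 and 87.6 CPM in Control mice 1 to 3, at 72.9, 53.6 and 63.3 CPM in AKI-CKD mice, and at 73.1, 103 and 183 CPM in AKI-CKD + EGT mice. All AKI-CKD values lay below all Control values, and below all AKI-CKD + EGT values, in the latter case by 73.1 against 72.9 CPM. Median UMIs per DCT cell were 2100, 2085 and 2024 in Control mice and 2533, 2267.5 and 2674 in AKI-CKD mice. With EGT they were 2487.5, 1926.5 and 2031. The AKI-CKD mice and AKI-CKD + EGT mouse 1 thus had the highest medians and the lowest Abcc2 values. The part of depth was not tested. The log2 fold change of Abcc2 was -0.68 for AKI-CKD against Control (SE 0.278, edgeR's quasi-likelihood test, unadjusted p = 0.029, Benjamini-Hochberg adjusted p = 0.505). Between AKI-CKD + EGT and AKI-CKD it was 0.93 (SE 0.277, unadjusted p = 0.00514, Benjamini-Hochberg adjusted p = 0.288 in edgeR; DESeq2 adjusted p = 0.0577). Neither passed the test. Without AKI-CKD + EGT mouse 1, whose value was the lowest of its group, the second difference was 1.17 and passed it (edgeR's quasi-likelihood test, Benjamini-Hochberg adjusted p = 0.0395), and without a filter on low counts both passed (-0.68, adjusted p = 0.0379, and 0.91, adjusted p = 0.000337, in edgeR). More genes were called in all under these settings: 244 of 12008 without that mouse, and 247 and 497 of 25046 without the filter, against 0 of 11865. Mouse 3 of AKI-CKD + EGT, the highest value of its group, is the library with 27.7% of cells removed and held 2762 DCT cells, where the others held 549 to 1444. Its PT marker ratio in DCT cells, 0.643, was also the highest of its group. Without it the second difference was 0.48, and without the mitochondrial limit it was 0.99. In Control mouse 1, the highest Control value, the PT marker ratio in DCT cells was 0.693, the highest of all mice. In the DCT clusters led by Slc12a3 or Pvalb alone, chosen after the values were seen, the differences were -0.66 and 0.92 (Benjamini-Hochberg adjusted p = 0.538 and 0.29 in edgeR). Over all alternatives the adjusted p ranged from 0.0379 to 0.889 and from 0.000337 to 0.808. As a multiple of the PT level of the same mouse, Abcc2 in DCT cells was at 0.519 ± 0.0723 in Control mice, at 0.375 ± 0.0434 after cisplatin alone and at 0.526 ± 0.159 with EGT.

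Slc22a2 in DCT cells was at 143, 158 and 142 CPM in Control mice, 99.1, 74.8 and 124 CPM in AKI-CKD mice, and 105, 146 and 144 CPM in AKI-CKD + EGT mice. The AKI-CKD values lay below all Control values and overlapped those of AKI-CKD + EGT. As for Abcc2, the lowest values were in the AKI-CKD mice and AKI-CKD + EGT mouse 1, which had the highest median UMIs per DCT cell. The log2 fold changes were -0.58 (SE 0.191, adjusted p = 0.447) and 0.42 (SE 0.190, adjusted p = 0.379), neither past the threshold in edgeR's quasi-likelihood test with Benjamini-Hochberg adjustment. The second was 0.22 without AKI-CKD mouse 2, whose value was the lowest. Slc47a1 differed by -0.22 and by 0.49, the latter with an unadjusted p of 0.0257 and an adjusted p of 0.326 in edgeR. Without AKI-CKD mouse 2 these were -0.047 and 0.31, without AKI-CKD + EGT mouse 3 the second was 0.33, and without AKI-CKD mouse 3 the first was -0.39. Slc31a1, whose DCT level exceeded what the PT markers give, was at 69.8 ± 3.97 CPM in Control, 71.2 ± 3.64 CPM in AKI-CKD and 69.9 ± 4.59 CPM in AKI-CKD + EGT mice. Its log2 fold changes were 0.03 (95% interval -0.26 to 0.32) and -0.03 (95% interval -0.32 to 0.26). Atp7a was lower in all AKI-CKD + EGT mice than in all AKI-CKD mice, 12.7 ± 3.03 against 17.1 ± 1.88 CPM, a log2 difference of -0.41 (95% interval -0.98 to 0.15; adjusted p = 0.509 in edgeR), or -0.25 without mouse 1 of AKI-CKD + EGT. Slc31a2 differed by 0.31 and -0.35, with overlapping groups. Without 1 mouse the first ranged from 0.083 (Control mouse 1 left out) to 0.76 (Control mouse 2), and the second reached -0.55 (mouse 1 of AKI-CKD + EGT).

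As counts in DCT cells, AKI-CKD against Control gave 0 of 6 transporters called, beside 0% of the 11865 genes tested. There were 2 of 6 with an unadjusted p under 0.05, beside 9.4% of all genes, and 2 of 6 without overlap, beside 16.4%. AKI-CKD + EGT against AKI-CKD gave 0 of 6 called, beside 0% of all genes, 3 of 6 with an unadjusted p under 0.05, beside 12.9%, and 2 of 6 without overlap, beside 17.8%. The median log2 fold change of the 6 genes was -0.10 and 0.19, beside -0.01 and 0.02 over all genes. The genes with an unadjusted p under 0.05 were Slc22a2 and Abcc2 in the first comparison and Slc22a2, Slc47a1 and Abcc2 in the second, the 3 genes that are highest in PT cells.

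In LOH cells the groups of Slc22a2, Slc47a1 and Abcc2 overlapped in both comparisons. Abcc2 was at 124, 105 and 96.0 CPM in Control mice, 93.4, 63.1 and 102 CPM in AKI-CKD mice, and 95.6, 124 and 168 CPM in AKI-CKD + EGT mice. Slc47a1 was at 116, 148 and 124 CPM, then 110, 76.5 and 135 CPM, then 131, 159 and 168 CPM in the same order. From AKI-CKD to AKI-CKD + EGT the log2 fold change was 0.61 for Abcc2 (SE 0.213, adjusted p = 0.219) and 0.53 for Slc47a1 (SE 0.193, adjusted p = 0.244), in edgeR's quasi-likelihood test with Benjamini-Hochberg adjustment, and did not pass it. These fell to 0.36 for Abcc2 without mouse 3 of AKI-CKD + EGT and to 0.32 for Slc47a1 without AKI-CKD mouse 2. Against Control, Abcc2 differed by -0.34 and Slc47a1 by -0.28 in AKI-CKD, and by -0.15 and -0.076 without AKI-CKD mouse 2. With another mouse left out they reached -0.49 and -0.49. Slc22a2 differed by -0.37 and 0.27. Without AKI-CKD mouse 2, its lowest value, these were -0.14 and 0.033, and without AKI-CKD mouse 3 they were -0.66 and 0.54. Slc31a1 was at 72.6, 75.4 and 69.8 CPM in Control mice, 64.6, 59.9 and 58.9 CPM in AKI-CKD mice, and 81.9, 68.3 and 65.1 CPM in AKI-CKD + EGT mice, without overlap in either comparison. Its log2 fold changes were -0.25 (95% interval -0.59 to 0.08) and 0.22 (95% interval -0.12 to 0.56), with adjusted p-values of 0.604 and 0.586 in edgeR, and the second was 0.13 without mouse 1 of AKI-CKD + EGT. Slc31a2 and Atp7a had between 7 and 70 UMIs per mouse in LOH cells, and their log2 fold changes, from -0.10 to 0.31, had intervals that hold 0.

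Of the 6 transporters tested in LOH cells, AKI-CKD against Control gave 0 called, beside 0.019% of the 10534 genes tested, 0 with an unadjusted p under 0.05, beside 10.5%, and 1 without overlap, beside 16.2%. AKI-CKD + EGT against AKI-CKD gave 0 called, beside 0.304% of all genes (32 genes, but 1 to 214 when 1 mouse was left out, with 214 without AKI-CKD + EGT mouse 1, and 3 with the replicate block), 2 with an unadjusted p under 0.05, beside 13.4%, and 1 without overlap, beside 16.3%. The median log2 fold change of the 6 genes was -0.26 and 0.24, beside -0.01 and 0.02 over all genes.

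**Figure D5:**
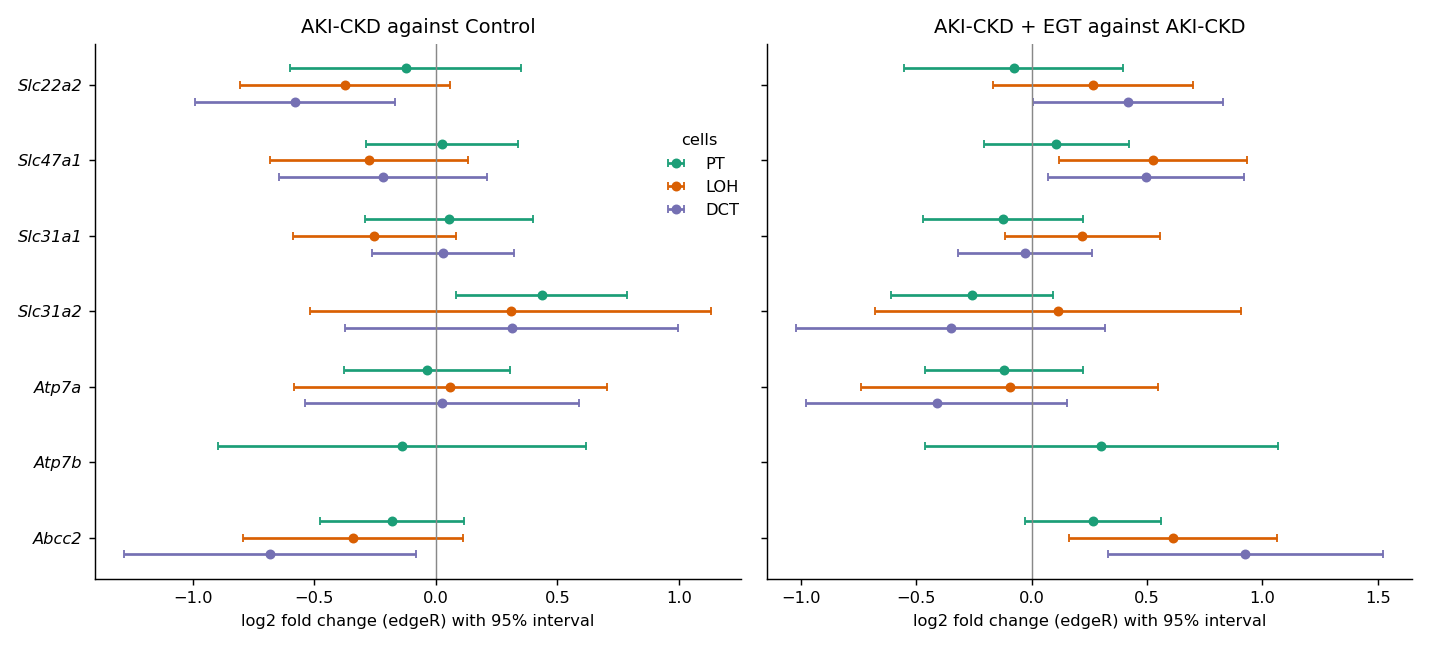
Log2 fold change of each transporter in PT, LOH and DCT cells, for the effect of cisplatin (AKI-CKD against Control) and of added EGT (edgeR, n = 3 mice per group). Points are estimates and bars 95% intervals, and Atp7b was tested only in PT cells. In PT cells the intervals hold 0 except for Slc31a2 in AKI-CKD against Control (0.08 to 0.79), and in DCT cells Abcc2 lies at -0.68 and 0.93.

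Around the transporters, 3 further lists were counted: 16 other organic cation and drug transporters, 18 copper handling genes and 13 genes of glutathione and cysteine conjugate handling. No gene of these lists passed edgeR's adjusted threshold in PT, LOH or DCT cells in either comparison. In PT cells, AKI-CKD against Control, the unadjusted p was under 0.05 for 1 of the 15 drug transporters tested, 2 of 17 copper genes and 3 of 13 glutathione genes, beside the 10.8% of all genes. For AKI-CKD + EGT against AKI-CKD the counts were 3 of 15, 6 of 17 and 1 of 13, beside the 14.7% of all genes. Of the 6 copper genes, 5 were lower in AKI-CKD + EGT. The median log2 fold change of the copper list was 0.15 in the first comparison and -0.22 in the second. It was 0.11 and -0.21 for the drug transporters and 0.02 and -0.11 for the glutathione genes. Over all genes it was -0.01 in both. Atox1, the chaperone that hands copper to the ATPases, was at 810 ± 60.96 CPM in Control, 1040 ± 121 CPM in AKI-CKD and 715 ± 113 CPM in AKI-CKD + EGT mice (SD, n = 3 each). Its log2 fold change was 0.36 (SE 0.164, adjusted p = 0.463) and then -0.54 (SE 0.164, adjusted p = 0.239), without overlap in either comparison and without passing edgeR's quasi-likelihood test with Benjamini-Hochberg adjustment. Cp, which encodes the copper-carrying ferroxidase ceruloplasmin, was low, at 1.83 ± 0.426, 1.13 ± 0.163 and 2.11 ± 0.619 CPM, with log2 fold changes of -0.70 and 0.90 (adjusted p = 0.424 and 0.239 in edgeR). Among the drug transporters the smallest p belonged to Abcc1, which encodes the exporter MRP1, and to Lrrc8a, which encodes a subunit of the volume-regulated anion channel. Abcc1 was nearly undetected, at 0.519, 0.177 and 0.827 CPM on average, from 118, 36 and 143 UMIs in all PT cells of a group. Its log2 fold change was -1.55 in AKI-CKD against Control (SE 0.532, adjusted p = 0.384) and 2.22 from AKI-CKD to AKI-CKD + EGT (SE 0.534, adjusted p = 0.218 in edgeR), without overlap in either comparison. Lrrc8a was at 30.4 ± 1.57, 32.9 ± 3.65 and 25.2 ± 1.19 CPM, with log2 fold changes of 0.12 in AKI-CKD (SE 0.114) and -0.39 in the EGT comparison (SE 0.115, adjusted p = 0.234 in edgeR). Of the glutathione list, Gsta2, a glutathione S-transferase, was at 470 ± 94.2, 826 ± 90.3 and 540 ± 183 CPM, a log2 fold change of 0.81 in AKI-CKD (SE 0.247, adjusted p = 0.339 in edgeR) and of -0.61 with EGT added (SE 0.246, adjusted p = 0.293 in edgeR), without overlap in either comparison. Gstp1, another transferase, was at 97.1 ± 11.3, 169 ± 30.6 and 172 ± 80.4 CPM, a log2 fold change of 0.80 in AKI-CKD (SE 0.294, adjusted p = 0.406 in edgeR) without overlap with Control, and of 0.03 with EGT added (SE 0.292).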

How the data were processed

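Single-cell RNA libraries of 9 kidneys were used, 3 mice per group. The authors deposited raw UMI counts per gene and barcode, made with PISA 1.0 per the file headers and neither normalized nor log-transformed. The submitters' processing notes name the build GRCm39, and the aligner and annotation are not given in the sources used here. Groups and mouse numbers came from the labels. No label gives a batch, and cell names are running numbers, so names shared between libraries do not measure shared cells. The 7 transporters and all gene lists were chosen with earlier results of these data known.

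Cells with at least 1000 UMIs, 500 genes and at most 15% mitochondrial UMIs were kept. On 2000 variable genes without the 7 transporters, 30 principal components were adjusted for library differences by a re-implementation of the Harmony algorithm, and cells were clustered with 20 neighbours at a resolution of 1.1 (Python 3.11.15, scanpy 1.11.5, igraph 0.11.9, scipy 1.17.1). A cluster of at least 50 cells was named from 16 marker lists, by the list it scored highest on. At least 3 markers of that list had to be 2-fold above the pooled clusters of other types. No other list could have more markers among the cluster's 10 leading genes. None of those genes could go against the name, a condition set after the clusters were seen. PT clusters were then divided by 3 segment lists. The populations are therefore rebuilt. Levels by type are CPM over plain total UMIs, in mice with at least 20 cells of the type. Scrublet's own threshold worked in at most 1 library, AKI-CKD + EGT mouse 1, so doublets were kept, and leaving out the 6% highest scores was an alternative.

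Counts were summed per mouse and type and tested in a fit of the 9 mice with edgeR 4.0.16 (R 4.3.3; filter on low counts, TMM, quasi-likelihood F test, Benjamini-Hochberg adjustment over all genes tested, called at an adjusted p under 0.05). DESeq2 1.42.0 was an alternative. Scripts were tested on simulated data. Shares were compared by exact permutation. The methods section of the study tests cells as replicates, whereas here the mouse was the replicate. Named genes were the 7 transporters, for each the 3 genes most like it over types, and for each further list the 2 genes with the smallest p in PT cells. UMI counts from 3' ends do not allow levels to be compared between genes. Promoter windows came from RefSeq (GRCm38.p6) and share no coordinates with the files.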

Additional observations from a re-analysis of the deposited data

How the results depend on the processing

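For the 7 transporters, 610 log2 fold changes under alternatives were set against the 38 reported ones. Of these, 576 kept their direction and their side of the threshold, 3 kept the direction and passed it, and 31 changed sign. The sign changes fell on 16 of the 38 values, none of them among the 8 with an unadjusted p under 0.05, and the largest of the 16 was 0.31 in size. The count of called transporters kept its value of 0 in all but 3 of 96 alternatives: without a filter on low counts it was 1 in DCT cells in both comparisons, and leaving out mouse 1 of AKI-CKD + EGT gave 1 in DCT cells for AKI-CKD + EGT against AKI-CKD, so that leaving out 1 mouse gave 0 to 1 there. The gene was Abcc2 each time. Over all genes, these settings called 247 and 497 of 25046, and 244 of 12008. Leaving out the same mouse also gave 161 calls in PT cells and 214 in LOH cells, against 0 and 32. In AKI-CKD against Control, leaving out 1 mouse gave 0 to 15 calls in PT cells, 0 to 17 in LOH cells and 0 in DCT cells, against 8, 2 and 0.

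Leaving out 1 mouse at a time turned the sign of these log2 fold changes, given as lowest to highest. In PT cells, AKI-CKD against Control, Slc22a2 ranged from -0.30 to 0.040, Slc47a1 from -0.052 to 0.13, Slc31a1 from -0.021 to 0.15 and Atp7a from -0.12 to 0.13. For AKI-CKD + EGT against AKI-CKD, Slc22a2 ranged from -0.24 to 0.055 and Slc31a1 from -0.27 to 0.027. In LOH cells, Slc31a2 ranged from -0.074 to 0.59 and Atp7a from -0.14 to 0.39 in the first comparison, and from -0.072 to 0.49 and -0.37 to 0.10 in the second. In DCT cells, Slc31a1 ranged from -0.0083 to 0.075 and Atp7a from -0.21 to 0.24 in the first, and Slc31a1 from -0.071 to 0.027 in the second. The difference in the S1/S2 share ranged from 1.90 to 5.80 points and from -3.68 to 0.217 points. Among the other alternatives, only PT S3 cells gave -0.048 for Slc47a1 and -0.052 for Slc31a1 in AKI-CKD against Control, and only PT S1/S2 cells gave 0.41 and -0.053 for Atp7b in the 2 comparisons. For AKI-CKD + EGT against AKI-CKD, no Harmony gave -0.060 for Slc22a2 in LOH cells, and leaving out the 6% highest Scrublet scores gave -0.010 for Slc31a2 in LOH cells and 0.014 for Slc31a1 in DCT cells. The cause was not tested. In the DCT clusters led by Slc12a3 or Pvalb alone, Slc31a1 gave -0.0020 and Atp7a -0.012 in AKI-CKD against Control. The PT marker ratio of cycling cells went from 0.526 to 0.712 without Kap, also chosen after seeing the data. So was leaving out the S1/S2 cluster with the most Abcc2, which turned the mean log2 ratio of S3 over S1/S2 of Abcc2 from -0.28 to 0.18 and moved that of Slc47a1 from 0.089 to 0.31 and that of Atp7a from -0.97 to -0.75.

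The labels give mice of each group the numbers 1 to 3. Same-numbered mice deviated from their group means in PT cells with correlations from -0.456 to 0.476, and mice of different number from -0.460 to 0.444. The labels do not say whether the numbers pair the mice, and 3 mice per group cannot settle it. With the number as a replicate block, 0 transporters were called in each of the 6 tests, Slc31a2 in PT cells differed by 0.43 (edgeR, Benjamini-Hochberg adjusted p = 0.629) and Abcc2 in DCT cells by -0.69 and 0.88 (adjusted p = 0.673 and 0.455). The number of all genes called in PT cells was 8 and 0 in edgeR and 0 and 0 with the replicate block. It was 185 and 425 in DESeq2 and 93 and 213 without a filter on low counts. With 3 mice per group and few cells outside PT, differences smaller than the intervals given could not be detected, above all for Atp7b.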

Other observations

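A cluster of 322 cells was left unnamed. The list it scored highest on, urothelium, had 2 markers at least 2-fold above the pooled other types, under the 3 needed. The cluster was led by long neuronal genes such as Asic2, Cntnap2 and Pcdh15 and held 19 UMIs of Atp7b. They lay in 13 cells from 6 mice and came to 12.6 CPM over the cells of the cluster. PT cells had 0.418 CPM. Its Atp7a level was 33.9 CPM, from 51 UMIs in 37 cells. Abcc2 was at 265 CPM, from 399 UMIs in 133 cells, above its PT mean, and Slc47a1 at 203 CPM and Slc22a2 at 179 CPM, below theirs.

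Slc22a4 encodes the ergothioneine transporter OCTN1 and was named here after its values were seen. In PT cells it was at 20.3 ± 3.89 CPM in Control, 17.9 ± 2.64 CPM in AKI-CKD and 21.3 ± 1.82 CPM in AKI-CKD + EGT mice (SD, n = 3 each), with overlapping groups. Its log2 fold change was 0.25 in AKI-CKD + EGT against AKI-CKD (95% interval -0.11 to 0.61) and did not pass edgeR's quasi-likelihood test (Benjamini-Hochberg adjusted p = 0.493).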
